A study of Mus musculus with 10 samples.

Results

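Cytosolic RNA and DNA sensors were examined as a set of 9 genes, taken from the 54532 genes of the expression table by their gene names. The set holds the RIG-I-like receptors *Ddx58* (RIG-I), *Ifih1* (MDA5) and *Dhx58* (LGP2), the adaptors *Mavs* and *Tmem173* (STING), the nucleic acid-binding proteins *Zbp1* and *Eif2ak2* (PKR), the ubiquitin ligase *Trim25* and the receptor *Tlr3*. The name covers most but not all of them, since *Tlr3* reads RNA inside endosomes, *Mavs* and *Tmem173* relay signals from other proteins, and *Trim25* modifies RIG-I. RNA-seq was done on retinas of BALB/c mice, albino animals 2 months of age, whose unpigmented eyes let stray light reach the photoreceptors. After 12 hr of dark adaptation the animals spent 1 day under normal light of 200 lux (NL, 5 retinas) or under light of 15000 lux (LD, 5 retinas), which tests what intense light does to retinal gene expression. In the labels the NL samples carry the numbers 1, 4, 5, 7 and 8, and the LD samples 1, 4, 6, 7 and 8. The paper describes the 5 samples of each group as biological replicates, but no label says which mouse each retina came from. The p-values are based on the spread between these samples, and whether some retinas share a mouse was not tested.

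These proteins detect RNA or DNA in places or forms that are unusual for the cell's own nucleic acids. RIG-I and MDA5 bind double-stranded RNA in the cytosol and activate MAVS on mitochondria, while cyclic GMP-AMP made by the DNA sensor cGAS activates STING, and TLR3 signals through its own adaptor TICAM1 (TRIF). The routes meet at the kinase TBK1 and the factors IRF3 and IRF7, which switch on interferon genes, and interferon in turn raises the transcription of most of the receptors through elements bound by IRF and STAT proteins. PKR halts translation by phosphorylating eIF2α, and ZBP1 can start a programmed, lytic cell death through RIPK3 and MLKL.

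Levels are given as FPKM, the fragments of a gene per kilobase of its length, relative to library size. Counted back from these values, an NL library held 21343389 to 26832535 reads and an LD library 18965090 to 23378090. The markers of the tissue were in place. All 6 rod markers and 4 of 5 cone markers were called lower in LD by the test defined below. The remaining cone marker, *Pde6h*, was also lower, at 6.53 and 3.49 FPKM in the means of NL and LD, but not called (limma, adjusted p = 0.0126). The summed FPKM of the rod markers was 7511 to 9236 in NL and 1031 to 2204 in LD. Of 13 markers of microglia and macrophages 10 were called higher in LD, while *P2ry12*, *Tmem119* and *Csf1r* did not pass the test. The summed FPKM of the 13 was 35 to 54.7 in NL and 74.1 to 169 in LD. Of the markers of T and NK cells none reached the level needed for a test, with *Cd3e* at no more than 1 read in any retina. Of 3 tested markers of monocytes and neutrophils 1 was called higher, *Plac8*, which reached the filter only through the LD retinas. The retinas NL-5 and NL-7, LD-1 and LD-7, and LD-4 and LD-6 were far closer to each other than other retinas of their group. Their chi-square per gene was 2.52 to 3.41, against 10.9 to 38.5 for the other 17 pairs.

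Of the 9 sensor genes 8 rose in LD, and the remaining one, *Mavs*, was lower by less than 2-fold. A gene was called changed at an adjusted p under 0.01 in limma, with Benjamini-Hochberg adjustment over 24508 genes, and a fold change above 2 on the scale of log2(FPKM + 0.1). In this comparison 4.13% of all genes tested were called higher and 2.37% lower, 6.51% in all. The median log2 fold change was 2.61 over the 9 genes and -0.01 over all genes tested. The LD and NL retinas did not overlap for any of the 9 genes, with 8 higher and 1 lower, whereas 11.8% of all genes tested were higher and 10.6% lower without overlap, 22.4% in all. For each gene the two-sided exact permutation p over the 10 retinas was 0.00794, the smallest that 5 against 5 retinas can give. All 9 passed the filter of at least 0.1 FPKM in 5 retinas, but *Zbp1* passed it only through the LD retinas. In whole retinas, more RNA per cell and more cells of a type cannot be told apart, and the part that microglia or the lower photoreceptor RNA played in these differences was not tested.

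**Figure D1:**
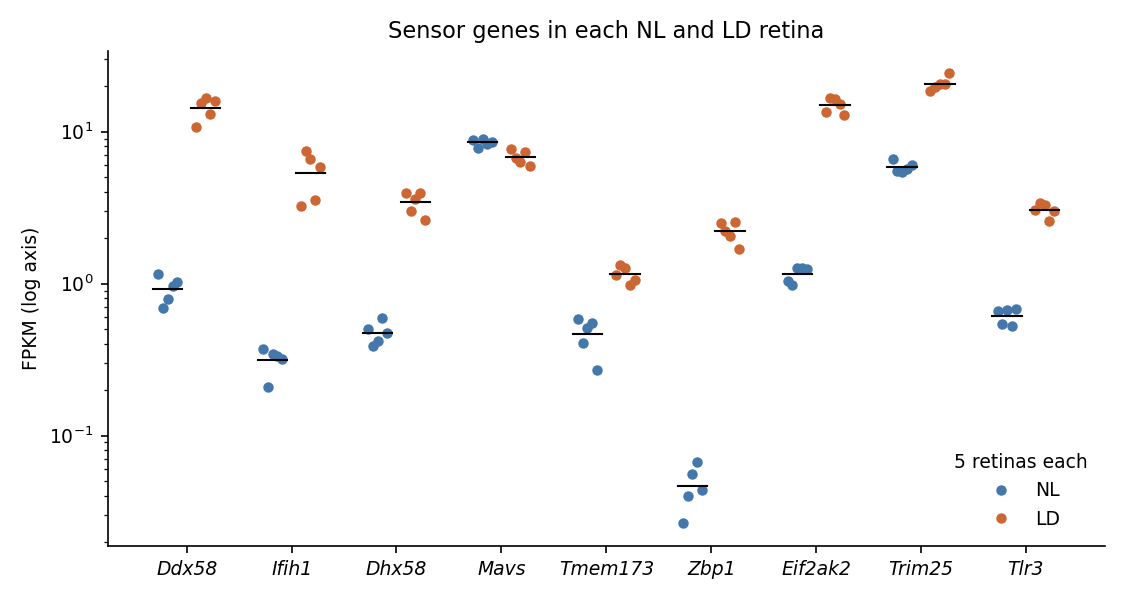
FPKM of the 9 sensor genes (log axis) in each of 5 NL and 5 LD retinas, with points for retinas and black lines for group means. The LD points lie above the NL points for all genes but *Mavs*, where they lie between 5.95 and 7.67 FPKM, below the NL range of 7.84 to 8.92 FPKM.

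The receptors RIG-I and MDA5 both rose more than 10-fold. *Ddx58* (ENSMUSG00000040296) lies on the minus strand of chromosome 4 at positions 40203773 to 40239828 of GRCm38 and encodes RIG-I, which binds short double-stranded RNA with a 5′ triphosphate. It was at 1.16, 0.694, 0.796, 0.969 and 1.02 FPKM in the NL retinas 1, 4, 5, 7 and 8. In the LD retinas 1, 4, 6, 7 and 8 it was at 10.7, 15.5, 16.5, 13.1 and 15.9 FPKM. Every LD retina was thus above 10 FPKM and every NL retina near 1 FPKM. The means were 0.928 ± 0.184 and 14.3 ± 2.41 FPKM (SD, n = 5 each), a 15.5-fold ratio. The log2 fold change was 3.82 ± 0.15 (SE; limma, adjusted p = 7.32e-08). Behind each value stood 104 to 185 reads in NL and 1838 to 2609 in LD.

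*Ifih1* (ENSMUSG00000026896), on the minus strand of chromosome 2 at positions 62595798 to 62646255, encodes MDA5, the sensor of long double-stranded RNA. Its level was 0.372, 0.208, 0.344, 0.335 and 0.318 FPKM in the NL retinas and 3.25, 7.51, 6.61, 3.55 and 5.82 FPKM in the LD retinas, in the same order of retinas. The LD retinas 1 and 7 were at about the same level, well below the other 3, yet both were above every NL retina. The log2 fold change was 3.65 ± 0.24 (SE; limma, adjusted p = 2.64e-06), from 36 to 67 reads a retina in NL and 647 to 1244 in LD.

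*Dhx58* (ENSMUSG00000017830), on the minus strand of chromosome 11 at positions 100694884 to 100704271, encodes LGP2, which lacks the signalling domains of RIG-I and MDA5 and modulates both. It was at 0.500, 0.388, 0.422, 0.590 and 0.474 FPKM in NL and at 3.95, 3.01, 3.62, 3.95 and 2.62 FPKM in LD. Here the LD retinas 1 and 7 were the highest of their group. *Dhx58* had a log2 fold change of 2.61 ± 0.15 (SE; limma, adjusted p = 1.05e-06), from 27 to 41 reads a retina in NL and 191 to 315 in LD. An antisense gene, *Dhx58os*, overlaps *Dhx58* and had 4 to 10 reads in each retina. The sources used here do not say whether counting used strand, so that reads of the pair cannot be told apart.

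The sequence around the start of the sensor genes was read from RefSeq on GRCm38.p6, in windows of 250 bases before to 50 bases after each gene's start. A window was found for 6 of the 9 sensor genes, and *Tmem173*, *Dhx58* and *Zbp1* are not shown. The windows were searched on both strands for GAAA followed after any 2 bases by another GAAA, the core of the element through which interferon-induced factors act, and for the same repeat with any 1 base in between. The first motif occurred in 3 of the 6 windows, those of *Ddx58*, *Eif2ak2* and *Ifih1*, at positions 3 to 12, 19 to 28 and 33 to 42 after the start. The second occurred in the window of *Ddx58*, at positions -60 to -52. No match was found in the windows of *Mavs*, *Trim25* and *Tlr3*, which says only that these letters are not in them. The windows follow RefSeq starts, which need not be the ends of the genes as placed below. For *Tlr3* the 100 bases before the RefSeq start, chr8:45410381-45410480, lie inside the gene as placed there, at 45395665 to 45411080. Of all 32851 RefSeq windows, 3.44% held the first motif and 3.17% the second, and of the 17118 windows of genes tested 2.98% and 2.46%. The first was in 10.1% (90 of 895) and the second in 5.25% of the windows of genes called higher in LD. A match is a description of the letters and no evidence that a factor binds there.

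The stretches of 30 bases around these matches are given here because they hold the letters searched for and belong to genes that rose. All are on the minus strand of the genome, are written 5′ to 3′ in the direction of transcription, and have the match in capitals. They lie at chr4:40239804-40239833 and chr4:40239866-40239895 for *Ddx58*, chr17:78882535-78882564 for *Eif2ak2* and chr2:62646206-62646235 for *Ifih1*.
Ddx58, positions 3 to 12, match on the opposite strand: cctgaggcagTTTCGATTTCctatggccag
Ddx58, positions -60 to -52: tctaggttcaGAAACGAAActggatccccg
Eif2ak2, positions 19 to 28: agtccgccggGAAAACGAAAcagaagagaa
Ifih1, positions 33 to 42: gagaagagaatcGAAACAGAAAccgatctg

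The 100 bases before the start are printed as examples for *Ddx58* (chr4:40239826-40239925, minus strand) and *Mavs* (chr2:131233963-131234062, plus strand). They held 68% and 66% G and C, with 6 and 7 CpG pairs, and only the first holds the motif in capitals. The same stretches of *Eif2ak2*, *Ifih1*, *Trim25* and *Tlr3*, which also rose, held neither motif. A match in these 100 bases therefore did not separate the genes that rose from *Mavs*.
Ddx58 upstream: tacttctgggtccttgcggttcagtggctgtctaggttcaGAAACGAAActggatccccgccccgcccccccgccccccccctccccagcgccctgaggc
Mavs upstream: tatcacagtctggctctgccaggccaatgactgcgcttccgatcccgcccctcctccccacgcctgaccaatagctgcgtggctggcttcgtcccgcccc

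The adaptors differed from the receptors. *Mavs* (ENSMUSG00000037523), on the plus strand of chromosome 2 at positions 131234063 to 131248025, encodes the mitochondrial protein that RIG-I and MDA5 both signal through. It was at 8.86, 7.84, 8.92, 8.28 and 8.58 FPKM in the NL retinas and at 7.67, 6.71, 6.33, 7.38 and 5.95 FPKM in the LD retinas. Every LD retina was below every NL retina, by a narrow margin. The means were 8.50 ± 0.448 and 6.81 ± 0.715 FPKM (SD, n = 5 each), and the log2 fold change was -0.32 ± 0.07 (SE; limma, adjusted p = 0.0085). The difference was thus under 2-fold and *Mavs* was not called, although its adjusted p passed, as did that of 17% of all genes tested when no fold was required. The authors' factor per retina was 0.951 to 0.968 in NL and 1.04 to 1.07 in LD, and without it the log2 fold change was -0.19 (limma, adjusted p = 0.0738). Over all alternatives the adjusted p of *Mavs* in limma was 0.00406 to 0.0754. Without this factor the median of all genes tested was 0.11, so that *Mavs* stayed below the median gene on both scales.

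*Tmem173* (ENSMUSG00000024349), on the minus strand of chromosome 18 at positions 35733678 to 35740554, encodes STING, the adaptor of the cytosolic DNA route. Its level was 0.589, 0.409, 0.514, 0.552 and 0.269 FPKM in NL and 1.14, 1.33, 1.26, 0.973 and 1.05 FPKM in LD. The groups did not overlap, but this was the smallest of the 8 increases and the one with the fewest LD reads. Its log2 fold change was 1.17 ± 0.19 (SE; limma, adjusted p = 0.00115), from 16 to 29 reads a retina in NL and 51 to 65 in LD. When each of the 3 close pairs was averaged to 1 sample, the value was 1.20 and the adjusted p of limma 0.0179, which did not pass. Over all alternatives the adjusted p of limma was 0.000475 to 0.0322. With a pseudocount of 1 FPKM the value was 0.55, under 2-fold.

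*Zbp1* (ENSMUSG00000027514), on the minus strand of chromosome 2 at positions 173206612 to 173218923, encodes a protein that binds left-handed Z-form nucleic acids. It was close to absent in NL, at 0.0265, 0.0400, 0.0558, 0.0667 and 0.0439 FPKM, which stood for 2 to 5 reads per retina. In LD it was at 2.51, 2.21, 2.05, 2.56 and 1.69 FPKM, from 133 to 216 reads. No NL retina reached the filter of 0.1 FPKM and every LD retina was above 1.5 FPKM. The log2 fold change was 3.97 ± 0.17 (SE; limma, adjusted p = 9.28e-08). Its size depended on the pseudocount and ran from 1.61 to 5.44 over the alternatives, so that the first rank of *Zbp1* in the set holds for the scale used and not for a pseudocount of 1 FPKM.

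*Eif2ak2* (ENSMUSG00000024079), on the minus strand of chromosome 17 at positions 78852564 to 78882573, encodes PKR, the kinase that double-stranded RNA activates. Its level was 1.03, 0.976, 1.26, 1.26 and 1.24 FPKM in NL and 13.5, 16.6, 16.5, 15.1 and 12.8 FPKM in LD. The means were 1.16 ± 0.139 and 14.9 ± 1.70 FPKM (SD, n = 5 each), a 12.9-fold ratio with little spread in either group. The log2 fold change was 3.58 ± 0.10 (SE; limma, adjusted p = 8.02e-09), the lowest adjusted p of the set. The non-coding genes *Gm26637* and *n-R5s29* overlap *Eif2ak2* on the other strand and had at most 17 and 3 reads in any retina, against 1462 to 1890 reads of *Eif2ak2* in LD.

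*Trim25* (ENSMUSG00000000275), on the plus strand of chromosome 11 at positions 88999376 to 89020293, encodes a ubiquitin ligase that acts on RIG-I. It was already abundant in NL, at 6.60, 5.48, 5.43, 5.68 and 6.04 FPKM, and stood at 18.6, 19.6, 20.6, 20.6 and 24.2 FPKM in LD. The ratio of the means was 3.54, and the log2 fold change was 1.81 ± 0.08 (SE; limma, adjusted p = 1.16e-07). In FPKM the difference between the means was nevertheless the largest of the 9 genes, from 5.85 to 20.7.

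*Tlr3* (ENSMUSG00000031639), on the minus strand of chromosome 8 at positions 45395665 to 45411080, encodes the endosomal receptor for double-stranded RNA. It was at 0.656, 0.542, 0.672, 0.525 and 0.677 FPKM in NL and at 3.05, 3.38, 3.28, 2.59 and 3.02 FPKM in LD. All LD retinas were near 3 FPKM and all NL retinas below 0.7 FPKM. Its log2 fold change was 2.15 ± 0.12 (SE; limma, adjusted p = 6.56e-07), from 58 to 91 reads a retina in NL and 307 to 387 in LD. The overlapping antisense gene *Gm45542* had 0 reads in every retina.

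**Figure D2:**
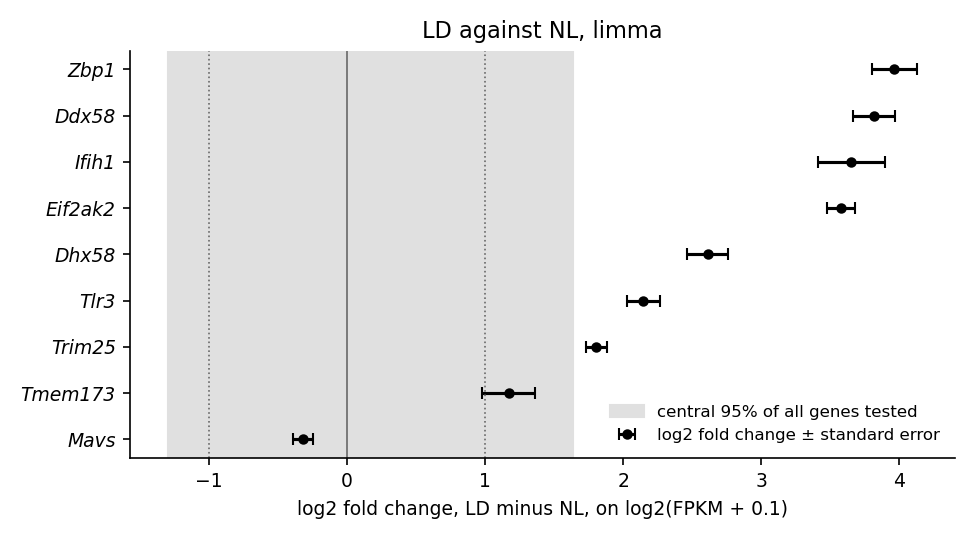
Log2 fold change of LD against NL on log2(FPKM + 0.1) for each sensor gene, with bars for the standard error of limma, beside a grey band for the central 95% of all genes tested, from -1.30 to 1.64. Of the 9 genes 7 lie above the band, and *Mavs* and *Tmem173* lie inside it.

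The order of levels per gene length changed with light. In NL *Mavs* led at 8.50 FPKM, followed by *Trim25* at 5.85 FPKM, and neither overlapped its neighbour. Next came *Eif2ak2* at 1.16 and *Ddx58* at 0.928 FPKM, whose ranges overlapped, then *Tlr3* at 0.614 FPKM, and then *Dhx58*, *Tmem173* and *Ifih1*, each overlapping the gene before it. *Zbp1* was last at 0.0466 FPKM. In LD *Trim25* led at 20.7 FPKM, followed by *Eif2ak2* and *Ddx58* with overlapping ranges. *Mavs* came next at 6.81 FPKM and overlapped *Ifih1* at 5.35 FPKM, and *Tmem173* was last at 1.15 FPKM. Among the protein-coding genes tested *Ddx58* was at the level percentile 20.5 in NL and 75.7 in LD, while *Mavs* was at 60.9 and 53.6.

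The 9 genes together summed to 18.3 FPKM in NL (16.6 to 19.8) and to 72.0 FPKM in LD (64.4 to 76.8). *Mavs* made up 46.4 ± 1.50% of the sum in NL and 9.54 ± 1.64% in LD (SD, n = 5 each). The share of *Ddx58* was 5.03% in NL and 19.8% in LD, and that of *Eif2ak2* was 6.31% and 20.7%. The share of *Trim25* overlapped between the groups, at 29.5 to 33.3% in NL and 25.8 to 33.2% in LD.

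**Figure D3:**
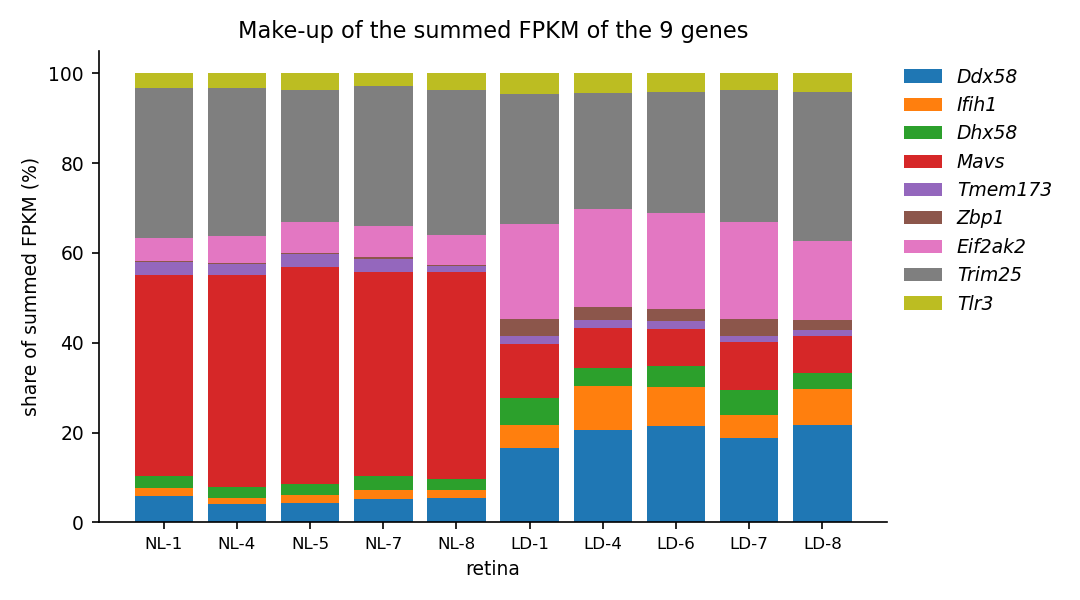
Share of each sensor gene in the summed FPKM of the 9 genes (percent), stacked to 100% for each of the 5 NL and 5 LD retinas. *Mavs* holds 44.8 to 48.5% of every NL bar and 8.14 to 11.9% of every LD bar.

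Within a retina the scaling of the library cancels from a ratio except through the 0.1 FPKM added to each value. On this log2 scale 4 ratios were compared, with adjustment over the 4. *Ifih1* per *Mavs*, a receptor against its adaptor, was 0.0387 to 0.0527 in NL and 0.431 to 1.12 in LD. The log2 ratio was higher in LD by 3.97 (two-sided exact permutation p = 0.00794, adjusted p = 0.0159). *Ifih1* was higher and *Mavs* lower in every LD retina than in any NL retina. The exact p of this ratio was thus fixed by the levels given above and adds no support of its own. *Tlr3* per *Ticam1*, the adaptor of TLR3, was 0.327 to 0.523 in NL and 0.708 to 1.17 in LD, and its log2 ratio was higher by 1.30 with the same exact p and adjusted p. *Ticam1* itself went from 1.66 ± 0.194 to 3.07 ± 0.378 FPKM (SD, n = 5 each), which was under 2-fold and not called.

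Among the 3 RIG-I-like receptors *Dhx58* did not keep up with *Ifih1*. Their log2 ratio was lower in LD by an amount of -1.04 (two-sided exact permutation p = 0.0159, adjusted p = 0.0212), but the ranges overlapped, at 1.17 to 1.59 in NL and 0.409 to 1.21 in LD. The retinas LD-1 and LD-7 were at 1.21 and 1.11, close to the NL retinas, and the other LD retinas were at 0.409, 0.554 and 0.460. With a pseudocount of 1 FPKM the difference was -0.64 (exact permutation p = 0.0952) and did not pass. For *Ddx58* per *Ifih1* the log2 ratio was higher by 0.16 in LD (two-sided exact permutation p = 0.341), with ranges of 2.02 to 2.67 in NL and 2.05 to 3.62 in LD, so that no difference was detected on this scale. With a pseudocount of 1 FPKM it was 0.76 (exact permutation p = 0.00794), and with 0.01 FPKM it was -0.048 (exact permutation p = 0.794).

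The 5 LD retinas did not rank the sensor genes alike. The close pair LD-1 and LD-7 was lowest in LD for *Ddx58* and *Ifih1* and highest for *Dhx58*, *Mavs* and *Zbp1*. Over all genes tested 21.6% had both of these retinas above the other 3 and 19.9% had both below, so that a split of 3 and 2 of the 9 genes by this pair is near the background. The coefficient of variation among LD retinas was 35.1% for *Ifih1*, 16.8% for *Ddx58* and 10.3% for *Trim25*. Microglial *Cx3cr1* was at 4.51, 3.97, 3.80, 3.61 and 2.22 FPKM in the LD retinas 1, 4, 6, 7 and 8. Microglial *C1qa* was at 54.5, 32.3, 32.6, 45.3 and 21.7 FPKM in the same retinas, with LD-1 and LD-7 the highest, as for 21.6% of all genes tested.

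**Figure D4:**
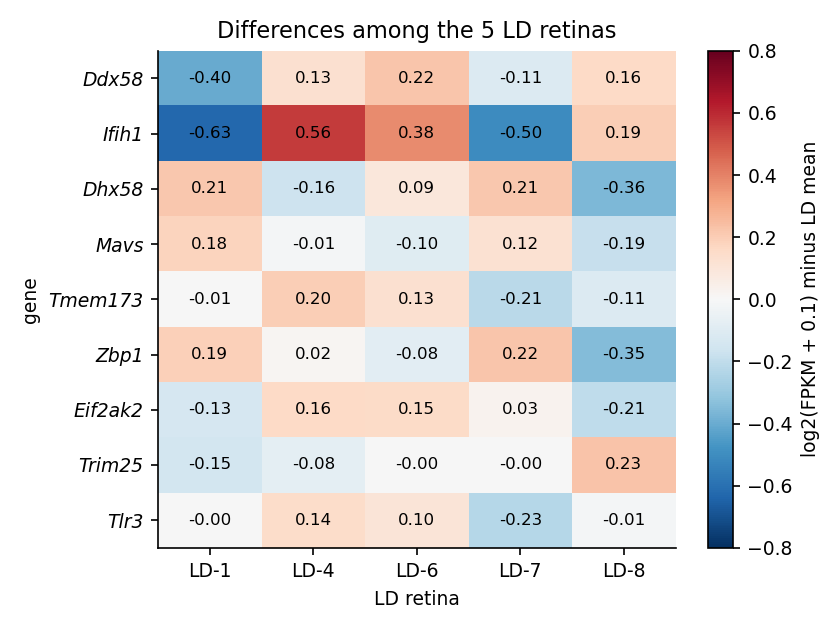
Difference of log2(FPKM + 0.1) from the LD mean for each sensor gene (vertical) in each of the 5 LD retinas (horizontal), with red above and blue below the mean. *Ifih1* has the widest range, from -0.63 in LD-1 to 0.56 in LD-4, and LD-8 is lowest for *Dhx58*, *Zbp1*, *Mavs* and *Eif2ak2*.

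The genes whose profile over the 10 retinas was most like that of a sensor gene were found among 12680 protein-coding genes by the root mean square distance of log2(FPKM + 0.1), centred on the NL mean. For *Ifih1* they were *Irf1*, at a distance of 0.131, and *Dtx3l*, at 0.187. *Irf1* was at 10.8, 22.4, 20.6, 12.4 and 18.9 FPKM in the LD retinas 1, 4, 6, 7 and 8, with LD-1 and LD-7 lowest as for *Ifih1*. For *Ddx58* they were *Gbp7* and *Cd274*, for *Dhx58* *Cd68* and *Phf11d*, for *Eif2ak2* *H2-Q4* and *Pik3ap1*, and for *Zbp1* *Ifit3b* and *Tcstv1*. For *Trim25* they were *Mitd1* and *Stat3*, for *Tlr3* *Vwa5a* and *Zfp36*, for *Tmem173* *Ninj1* and *Cited4*, and for *Mavs* *Tmem167* and *Cul4a*. *Cd68*, the nearest to *Dhx58* at a distance of 0.200, is one of the microglial and macrophage markers.

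When the retinas were split by the presence of *Xist*, an RNA made by the inactive X chromosome of female cells, all 9 genes kept their direction in both subsets. In the 2 NL and 2 LD retinas with *Xist* the log2 difference was 4.10 for *Ddx58*, 4.32 for *Ifih1* and 1.69 for *Tmem173*. In the 3 NL and 3 LD retinas without it these were 3.63, 3.21 and 0.83. The difference for *Mavs* was -0.33 and -0.32, and that for *Zbp1* was 3.97 and 3.96. The LD retinas with *Xist* were the close pair LD-4 and LD-6, and the close pair LD-1 and LD-7 was without it. Sex and close pair can therefore not be told apart in these differences.

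The partners of the sensors were described in 9 lists, with the share of 4.13% called higher among all genes tested as the background. In 4 lists 5 genes had no NL retina at 0.1 FPKM and reached the filter only through the LD retinas, where they were high: *Ifi204*, *Oasl1*, *Mlkl*, *Nlrp3* and *Tlr7*. They could be tested only because of that level. All 5 are among the genes called. *Rnf125*, *Nlrc5*, *Mb21d1*, *Ifnlr1*, *Oas1a* and *Oas2*, also called, had at least 1 NL retina below 0.1 FPKM and needed LD retinas to pass as well. The counts and medians of the lists are descriptions that include all of these genes. No gene of these lists was called lower in limma or in limma-voom on the reads, and 13 were lower at an unadjusted p under 0.05. Among these 13, *Pcbp2*, *Zcchc3*, *Irf3*, *Stim1*, *Azi2*, *Tarbp2* and *Ikbkg* also had an adjusted p under 0.01 in limma, with changes under 2-fold. Without a minimum fold 17% of all genes tested, in either direction, had such an adjusted p. Of 23 regulators and partners of the RIG-I-like receptors 8 rose, and the median log2 fold change of the list was -0.0031. The RNA-binding *Ifit1* was at 0.328 ± 0.0793 FPKM in NL and 28.1 ± 4.29 FPKM in LD (SD, n = 5 each), and *Ifit3* at 3.91 ± 0.796 and 100.2 ± 7.96 FPKM. Reads of these genes may be shared with near-identical family members. *Nlrc5*, a regulator of antigen presentation and of RIG-I signalling, was at 0.160 ± 0.0426 and 11.6 ± 1.96 FPKM, and an antisense gene overlaps it. *Rnf135*, the RIG-I ligase also called Riplet, had a log2 fold change of 1.08 (limma, adjusted p = 1.25e-05). The helicase *Ddx3x* was at 80.8 ± 12.4 FPKM in NL and 80.2 ± 8.83 FPKM in LD.

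Of 17 genes of DNA sensing 3 rose, with a median log2 fold change of 0.07. They were *Mb21d1*, which encodes cGAS, *Ifi204* and *Trim56*, a ligase that acts on cGAS and STING. *Mb21d1* was low in both groups, at 0.0669 ± 0.0345 FPKM in NL and 0.318 ± 0.114 FPKM in LD (SD, n = 5 each), from 31 and 149 reads over all retinas of a group. Its log2 fold change of 1.31 (limma, adjusted p = 0.00191) was 0.30 with a pseudocount of 1 FPKM. *Mb21d1* was also not called in limma with the close pairs averaged (adjusted p = 0.0314), or on the shared numbers with the replicate block (adjusted p = 0.0386) or without it (adjusted p = 0.0171). *Ifi204*, which reached the filter only through the LD retinas, had 2 reads in all NL retinas together and 279 in the LD retinas, and it has near-identical relatives. *Trim56* was at 1.48 ± 0.152 and 8.15 ± 2.36 FPKM, and *Rnaseh2c*, a subunit of the enzyme that removes RNA from DNA, was at 13.4 ± 0.686 and 13.4 ± 1.64 FPKM.

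Of 16 adaptors and kinases of the sensors or of Toll-like receptors 2 were called higher, *Myd88* and *Ripk1*, with a list median of 0.30. Without overlap between the groups 8 of the 16 were higher and 2 lower, against 11.8% and 10.6% of all genes tested. The 14 genes not called changed by less than 2-fold. *Myd88*, the adaptor of most Toll-like receptors, was at 2.00 ± 0.346 FPKM in NL and 8.11 ± 1.41 FPKM in LD, and *Ripk1* at 1.18 ± 0.206 and 3.44 ± 0.380 FPKM (SD, n = 5 each). *Tbk1*, the kinase on which the routes meet, was at 20.2 ± 2.73 and 21.4 ± 1.74 FPKM (limma, adjusted p = 0.525). *Tank*, which binds TBK1, was at 4.99 ± 0.330 and 4.99 ± 0.400 FPKM.

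Of 11 transcription factors 7 were called higher, with a median log2 fold change of 2.06. Without overlap between the groups 10 of the 11 were higher and 1 lower, against 11.8% and 10.6% of all genes tested. *Irf7* was at 2.41 ± 0.773 FPKM in NL and 37.4 ± 11.2 FPKM in LD, *Irf1* at 1.34 ± 0.156 and 17.0 ± 5.16 FPKM, and *Irf8*, a factor of microglia and other myeloid cells, at 0.374 ± 0.0665 and 4.40 ± 0.713 FPKM (SD, n = 5 each). *Irf5*, *Irf9* and *Stat2* also rose. *Irf3*, which the sensors activate by phosphorylation, was at 22.0 ± 0.756 and 17.7 ± 1.50 FPKM. Its log2 fold change of -0.32 (limma, adjusted p = 0.00215) was under 2-fold, as was that of *Mavs*. The interferon-induced *Isg15*, a ubiquitin-like protein, was at 1.23 ± 0.321 and 31.4 ± 9.55 FPKM, a log2 fold change of 4.54 (limma, adjusted p = 2.56e-07).

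Transcripts of the interferons themselves were barely seen. Of 17 interferons and interferon receptors 6 were tested, all of them receptor chains, and 2 rose. *Ifnb1* had 0 reads in the NL retinas and 3 reads in the LD retinas, all 3 in 1 retina, so that no fold is given, and a difference was not detectable at this depth. *Ifnar2* was at 2.05 ± 0.306 FPKM in NL and 4.62 ± 1.07 FPKM in LD, and *Ifnlr1* at 0.0616 ± 0.0397 and 0.313 ± 0.121 FPKM (SD, n = 5 each). *Ifnlr1* lost its call in 6 of the 10 fits that left out 1 retina, those without NL-1, NL-4, NL-8, LD-4, LD-6 or LD-7, at an adjusted p of 0.0103 to 0.0124 in limma. It was also not called with a pseudocount of 1 FPKM, where its log2 fold change was 0.30. *Ifnar1*, the other chain of the type I receptor, was at 10.5 ± 0.729 and 11.1 ± 0.410 FPKM (limma, adjusted p = 0.332).

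None of the 16 genes of the PKR axis was called in limma or in limma-voom on the reads, although *Eif2ak2* itself rose, and 4 were higher and 1 lower at an unadjusted p under 0.05. With 6.51% of all genes tested called, a count of 0 of 16 is near the background. Their log2 fold changes ran from -0.26 to 0.54 with a median of 0.06, and 2 of the 16 were higher and 1 lower without overlap between the groups, against 11.8% and 10.6% of all genes tested. The lowest and highest fold changes were those of *Tarbp2* and *Eif2ak3*, at an adjusted p of 0.00356 and 0.000405 in limma but under 2-fold. *Eif2b2*, a subunit of the factor that recharges eIF2, was at 19.9 ± 0.915 FPKM in NL and 20.04 ± 0.439 FPKM in LD (SD, n = 5 each). Of 4 tested partners of *Zbp1* 3 rose, of which *Mlkl* and *Nlrp3* reached the filter only through the LD retinas. *Mlkl*, the protein that opens the membrane in necroptosis, was at 0.0416 ± 0.0336 and 1.53 ± 0.242 FPKM, and *Casp8* was at 0.304 ± 0.0718 and 1.98 ± 0.437 FPKM. *Nlrp3* was at 0.0483 ± 0.0196 and 0.206 ± 0.0960 FPKM, just past the 2-fold limit with a log2 fold change of 1.01, and it did not pass in 9 of the 10 fits that left out 1 retina, all but that without LD-6. *Ripk3* missed the filter and was not tested. It was at 0.0320 ± 0.0313 and 0.195 ± 0.0627 FPKM, from 8 and 50 reads over all retinas of a group, with the lowest LD retina at 0.098 FPKM.

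Of 12 genes that edit or degrade double-stranded RNA 5 were called higher, all of the oligoadenylate synthetase family, with a list median of 0.85. Without overlap between the groups 8 of the 12 were higher and 0 lower, against 11.8% and 10.6% of all genes tested. *Oasl2* was at 0.786 ± 0.181 FPKM in NL and 26.3 ± 4.12 FPKM in LD, *Oas1b* at 0.271 ± 0.110 and 12.9 ± 2.54 FPKM, and *Oas1a* at 0.0946 ± 0.0640 and 2.83 ± 0.917 FPKM (SD, n = 5 each). The Oas1 genes are near-identical copies and the split of reads between them is uncertain. *Adar*, which edits double-stranded RNA, was at 15.1 ± 0.492 and 26.1 ± 0.777 FPKM, under 2-fold, and *Skiv2l* at 17.6 ± 0.722 and 18.1 ± 1.30 FPKM. Of 7 genes of endosomal recognition other than *Tlr3* 4 rose, with a median of 1.20, and *Tlr7* was one that reached the filter only through the LD retinas. *Cd14* was at 0.696 ± 0.106 and 4.37 ± 0.286 FPKM, *Tlr7* at 0.0538 ± 0.0284 and 0.652 ± 0.221 FPKM, and *Tlr13* at 0.140 ± 0.0286 and 0.543 ± 0.0638 FPKM. *Hsp90b1*, a chaperone of Toll-like receptors, was at 68.4 ± 3.41 and 71.5 ± 1.48 FPKM. *Cd14*, *Tlr7* and *Tlr13* are genes of myeloid cells, and the summed microglial markers were higher in LD as given above.

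**Figure D5:**
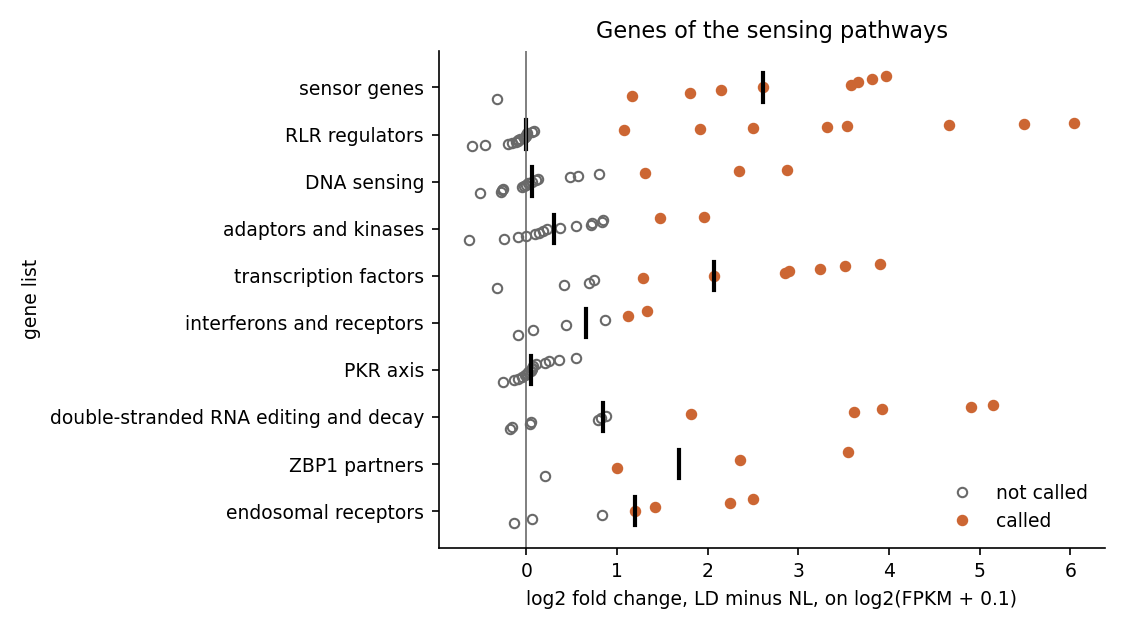
Log2 fold change of LD against NL on log2(FPKM + 0.1) for every tested gene of the sensor set and 9 lists of related genes, with filled points for genes called, open points for genes not called and black lines for list medians. The filled points lie at 1.01 and above, all of them higher in LD, and the PKR axis has none.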

How the data were processed

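The authors deposited 1 table of FPKM for 54532 genes and 10 retinas. The submitters' processing notes name Bowtie2 2.0.6, TopHat2 2.0.9 and the build mm8, but the positions are on GRCm38: 53585 of the genes have the same position in GENCODE M21. The counting program is not given in the sources used here. All values (100%, within 0.01) were whole multiples of the worth of 1 read, which gave the reads and the authors' factor per retina. Read numbers bear on counting error alone.

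Here log2 of the deposited FPKM plus 0.1 was fitted for 24508 genes that reached 0.1 FPKM in 5 retinas or more, in limma 3.58.1 (R 4.3.3) with an intensity trend and no block, and calls needed an adjusted p under 0.01 and a fold above 2, as the study's text uses. On simulated data for 24467 genes 97 of 100 genes changed by 1.5 and 100 of 100 changed by 3 on the log2 scale were called, with 4 false calls. The simulated retinas were independent, with the same spread setting for all genes, and genes with few NL reads were not among those changed. The close pairs, the wider spread of genes such as *Ifih1* and the few NL reads of *Zbp1* were thus not simulated, and these rates do not carry over to them. Exact tests used scipy 1.17.1 under Python 3.11.15 (numpy 2.4.6, pandas 2.3.3, plots with matplotlib 3.10.9).

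The sensor genes, the lists and the rule for names were chosen with earlier results of these data known. Named were all members, from each list the 3 called genes with the largest and the 1 gene (group mean of 1 FPKM or more) with the smallest change, *Irf3*, *Irf7*, *Tbk1*, *Ticam1*, *Mb21d1*, *Isg15*, *Ifnb1* and *Rnf135*, the 2 nearest profiles of each member, and overlapping genes. *Adar*, *Ripk3*, *Oasl1*, *Irf5*, *Irf9*, *Stat2* and single markers of cell types were added after their values were seen. So were *Rnf125*, *Oas2*, *Pcbp2*, *Zcchc3*, *Stim1*, *Azi2*, *Tarbp2*, *Ikbkg* and *Eif2ak3*. Promoter sequences are from RefSeq. Some genes are not reported here. Markers of bipolar cells, pigment epithelium, endothelium and lens had 0 genes called in limma or limma-voom (1, 3, 2 and 1 at an unadjusted p under 0.05), and those of Müller glia 1, *Glul*, which was lower. Alternatives changed the pseudocount, filter, scaling, trend, test, threshold, independence of close pairs, *Xist* as a covariate and each retina left out. A count model on the recovered reads (limma-voom with TMM factors) called 1700 genes, against 1595 in the fit described.

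The labels share the numbers 1, 4, 7 and 8 between groups. The correlations of same-numbered retinas' deviations were 0.06, 0.07, -0.01 and -0.09, so that the numbers were not taken to pair the samples.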

Additional observations from a re-analysis of the deposited data

Results flagged for a closer look

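Groups of 5 retinas were tested for the sensor genes, the other genes that the rule named from the lists and the 4 ratios, 94 groups in all. In 6 of them 1 retina stood apart from the other 4 by Dixon's test, where chance gives about 4.7 (1 in 20). None of the 6 was a sensor gene or a ratio. In LD-8, *Tbk1* was at 18.4 FPKM (21.6 to 22.6 in the other LD retinas), *Ripk1* at 4.10 FPKM (3.16 to 3.42), *Rnaseh2c* at 16.2 FPKM (12.3 to 13.2) and *Ifit1* at 20.6 FPKM (28.6 to 31.4). In NL-4, *Ifi204* was at 0.0264 FPKM with 0 in the other NL retinas. In NL-5, *Nlrc5* was at 0.0870 FPKM (0.164 to 0.193 in the others).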

How the results depend on the processing

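Of the 9 sensor genes 8 were called in all fits but 5: 7 were called with a pseudocount of 1 FPKM, a filter of 1 FPKM, the close pairs averaged or the replicate block, and 9 (with *Mavs* at -0.32) at an adjusted p under 0.05 in limma with no fold. *Tmem173* was the call lost, with 0.55 (pseudocount 1 FPKM), 1.20 (adjusted p = 0.0179 in limma, pairs averaged) or not tested (filter). With retinas left out in turn *Tmem173* ran from 1.02 to 1.25 and *Mavs* from -0.36 to -0.27. All genes called numbered 1595, against 816 with a pseudocount of 1 FPKM, 6818 at an adjusted p under 0.05 with no fold, and 1386 to 1609 with 1 retina left out. Listed genes called numbered 34, against 22 and 66 in the first of these, and 31 to 34. With a pseudocount of 1 FPKM *Rnf135*, *Ifnar2*, *Ifi204*, *Tlr7* and *Tlr13* were at 0.78, 0.87, 0.74, 0.64 and 0.44, all under 2-fold. With the replicate block *Tlr7* and *Tlr13* were at an adjusted p of 0.0153 and 0.0151 in limma and did not pass. Without the factor per retina 72.2% of calls were higher, with TPM 72.7%, against 63.5%.

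With the replicate block on the shared numbers 815 genes were called, against 1194 in the same 8 retinas without it, and *Tmem173* was at 1.17 (adjusted p = 0.0322 in limma).

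Of the ratios, *Ddx58* per *Ifih1* was 0.76 and -0.048 with pseudocounts of 1 and 0.01 FPKM, and *Dhx58* per *Ifih1* was -0.64 with 1 FPKM. With TPM, a scaling tried for the ratios after seeing the data, *Ddx58* per *Ifih1* was -0.0044 and *Ifih1* per *Mavs* 4.25, and without the factor per retina the 4 ratios kept their sign and call. With the close pairs averaged (4 against 3, exact permutation p = 0.0571 at best) *Dhx58* per *Ifih1* was -1.14, *Ifih1* per *Mavs* 4.06 and *Tlr3* per *Ticam1* 1.27.

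Signs of log2 fold changes near 0 turned. Without the factor *Ddx3x*, *Rnaseh2c* and *Tank* were at 0.13 each, with TPM at 0.10, 0.097 and 0.10, and in limma-voom at 0.013, 0.0095 and 0.017. *Ddx3x* was at 0.037 with quantile normalization, *Rnaseh2c* at 0.0087 on the shared numbers with or without the block, and with pairs averaged *Rnaseh2c* was at 0.056 and *Tank* at 0.0035. With retinas left out *Ddx3x* ran from -0.060 to 0.056, *Rnaseh2c* from -0.077 to 0.023, *Tank* from -0.038 to 0.033 and *Eif2b2* from -0.014 to 0.028. The causes were not tested. Depth limits genes with few NL reads, such as *Zbp1* and *Mb21d1*.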
